A study of Mus musculus with 20 samples.

Results

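Igf1, the gene of insulin-like growth factor 1, Igfals, the gene of the acid-labile subunit, and the 7 binding protein genes Igfbp1 to Igfbp7 were followed in the liver of male mice. The 9 genes were taken by their symbols from the table of counts per gene, which held 36106 genes. All 9 were present, and all 9 passed the filter on low counts that left 16164 genes for testing. The least abundant of them, Igfbp6, was covered by 23 to 372 counts per library.

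The mice were either sham operated or orchiectomized (ORX), an operation that takes out the testes and so most testosterone, and each breathed either room air (normoxia, Nx) or intermittent hypoxia (IH) for 2 weeks. Repeated short drops in oxygen are used as a model of sleep apnoea. The groups were Sham_Nx with 4 mice (numbers 2 to 5), and Sham_IH, ORX_Nx and ORX_IH with 5 mice each. Sham_Nx mouse 1 was not analysed here. All mice were male, no group carried a transgene in the labels, and strain and age are not given in the sources used here. Each library came from the frozen liver of 1 mouse, so the spread between libraries includes the spread between animals.

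Insulin-like growth factor 1 is made largely by hepatocytes under growth hormone, whose signal runs from its receptor through JAK2 and STAT5. In blood most of it travels in a complex with the acid-labile subunit and IGFBP-3 or IGFBP-5, which keeps it in the circulation, while the other binding proteins form smaller complexes. Insulin holds Igfbp1 transcription down, and fasting raises it. In rodent liver Igf1, Igfals, Igfbp1, Igfbp2 and Igfbp4 are known as hepatocyte transcripts, whereas Igfbp3 and Igfbp7 come mostly from endothelial cells, macrophages and stellate cells. In RNA from whole tissue, fewer cells of a type and less RNA per cell cannot be told apart.

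The libraries held 29.3 to 69.6 M estimated counts. Counts were scaled to a common library size and are given as CPM. The 7 hepatocyte markers summed to between 78790 and 90974 CPM in Sham_Nx, between 98800 and 106476 CPM in Sham_IH, between 70033 and 113178 CPM in ORX_Nx and between 93298 and 113600 CPM in ORX_IH, and none of them was at 0. The sham groups did not overlap in this sum. Male-biased liver genes summed to between 7889 and 26970 CPM in sham mice and to between 218 and 1594 CPM after orchiectomy, so every library matched its operation. A few libraries stood apart. ORX_IH 1 and ORX_IH 2 held 939 and 557 CPM of 12 skeletal muscle markers and Sham_Nx 2 held 161 CPM, against 1.23 to 42.5 CPM in the others, of which Sham_Nx 3 was highest. These 4 are called the muscle-high libraries. Sham_IH 5, Sham_Nx 5 and ORX_IH 1 held 1402, 588 and 251 CPM of 13 pancreatic acinar markers, against 4.17 to 26.8 CPM in the others, and are called the pancreas-high libraries. ORX_Nx 4 and ORX_Nx 5 held 939 and 612 CPM of 9 Kupffer cell (liver macrophage) markers, against 150 to 401 CPM elsewhere. Those same libraries had the highest sums of 12 acute phase genes, at 8369 and 5274 CPM, against 2335 to 4423 CPM elsewhere.

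The levels of different genes can be compared only per transcript length, for which the authors' deposited log2 table was used. Igfbp4 was the most abundant member, with a mean log2 level of 9.31 ± 0.10 (SD, n = 4) in Sham_Nx. Igfbp2 followed at 8.26 ± 0.50 and Igf1 at 7.58 ± 0.19 in the same mice, and the ranges of these 2 overlapped there. Below them came Igfals at 6.48 ± 0.16, Igfbp7 at 5.76 ± 0.07, Igfbp1 at 4.68 ± 0.90 and Igfbp3 at 2.92 ± 0.12, with no overlap between neighbours in Sham_Nx. Igfbp5 at 0.82 ± 0.51 and Igfbp6 at 0.18 ± 0.52 were lowest and overlapped each other in every group. The order of the means was the same in all 4 groups except that Igfbp1 fell below Igfbp3 in ORX_IH, at 2.99 ± 0.80 against 3.18 ± 0.24 (n = 5), where their ranges overlapped.

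Converted to a linear scale, Igfbp4 and Igfbp2 together made up most of the binding protein transcript pool in each mouse. Igfbp4 took 60.9% ± 7.1 (SD, n = 4) of the pool in Sham_Nx, 51.0% ± 3.5 (n = 5) in Sham_IH, 54.6% ± 5.2 (n = 5) in ORX_Nx and 48.8% ± 3.6 (n = 5) in ORX_IH. Igfbp2 took 30.1% ± 7.6, 43.3% ± 4.3, 35.1% ± 6.4 and 45.0% ± 4.2 in the same order. The share of Igfbp2 was above 40% in 9 of the 10 mice under intermittent hypoxia and in 1 of the 9 in normoxia, ORX_Nx 3. Igfbp1 took 2.72% ± 1.24 and 3.01% ± 1.78 of the pool in the normoxic groups Sham_Nx and ORX_Nx, and 1.00% ± 0.57 and 0.661% ± 0.259 in Sham_IH and ORX_IH.

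**Figure D1:**
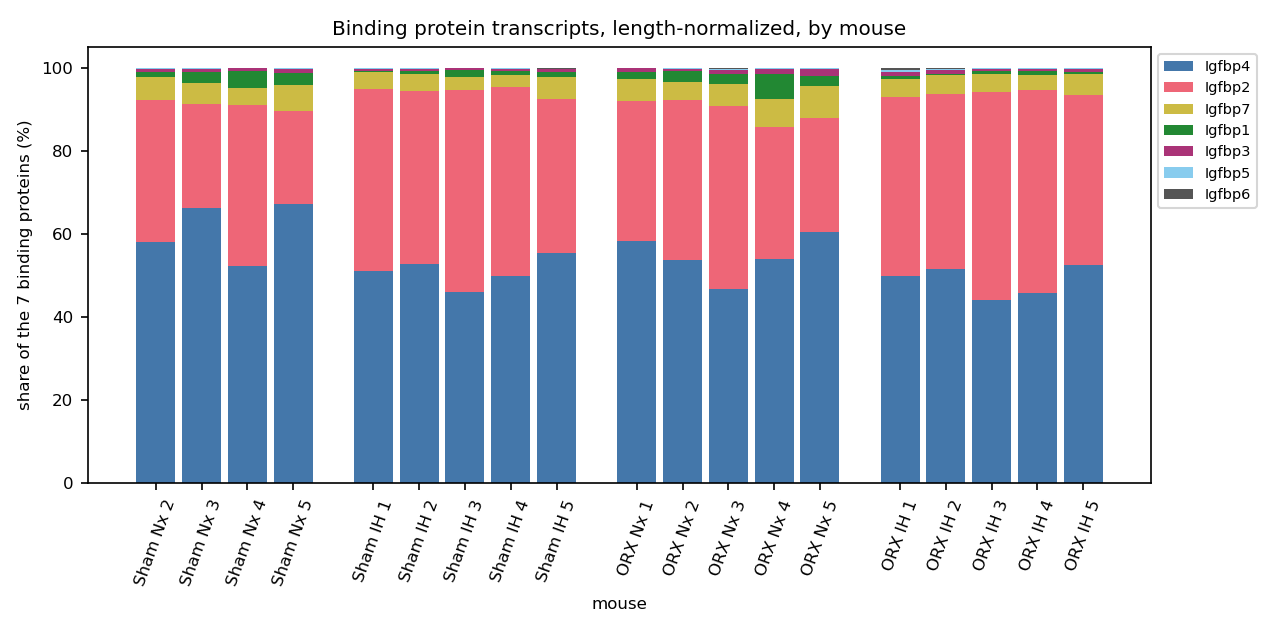
Share of each binding protein gene in the summed, length-normalized level of the 7 (vertical axis, percent) in each mouse (horizontal axis), from the authors' log2 table. Igfbp4 and Igfbp2 fill most of every bar, and the Igfbp2 part averages 43.3% in Sham_IH and 45.0% in ORX_IH against 30.1% in Sham_Nx and 35.1% in ORX_Nx.

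Each gene was tested with edgeR's quasi-likelihood test over all 4 groups, and a change was called at a Benjamini-Hochberg adjusted p under 0.05 over all genes tested. Averaged over both operations, intermittent hypoxia lowered Igfbp1 and raised Igfbp2, so 2 of 9 members changed, while 4.53% of all genes tested were called. Averaged over both exposures, orchiectomy raised Igfbp3 and Igfbp7, again 2 of 9, where 22.0% of all genes were called, a share near that of the members. Igf1, Igfals, Igfbp4, Igfbp5 and Igfbp6 passed in no comparison.

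Within single exposures or operations fewer members passed. Orchiectomy in normoxia raised Igfbp3 alone, 1 of 9 members, with 14.3% of all genes called. Under intermittent hypoxia no member passed for orchiectomy with 2.88% of all genes called. There 1 member had an unadjusted p under 0.05, against 17.2% of all genes. DESeq2 and limma also called none there. For intermittent hypoxia in sham mice no member passed, with 0.303% of all genes called. There 1 member had an unadjusted p under 0.05, against 13.1% of all genes. DESeq2 called 1 member, Igfbp2, and 397 of the 13615 genes to which it gave an adjusted p. In orchiectomized mice none passed either, with 0.0742% of all genes called. There 6 of 9 members had an unadjusted p under 0.05, against 17.1% of all genes. DESeq2 called 1 member, Igfbp1, and 706 of the 15494 genes to which it gave an adjusted p. With both treatments against Sham_Nx, Igfbp2 rose and no other member passed, with 8.62% of all genes called. The interaction of the 2 treatments was called for no member and for 0 of all genes by edgeR and by limma, and for 62 genes, no member among them, by DESeq2. No member and 1025 of all genes had an unadjusted p under 0.05 for the interaction in edgeR. Effects of 1 treatment at the 2 levels of the other are therefore given side by side, with no difference between them shown for any member.

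**Figure D2:**
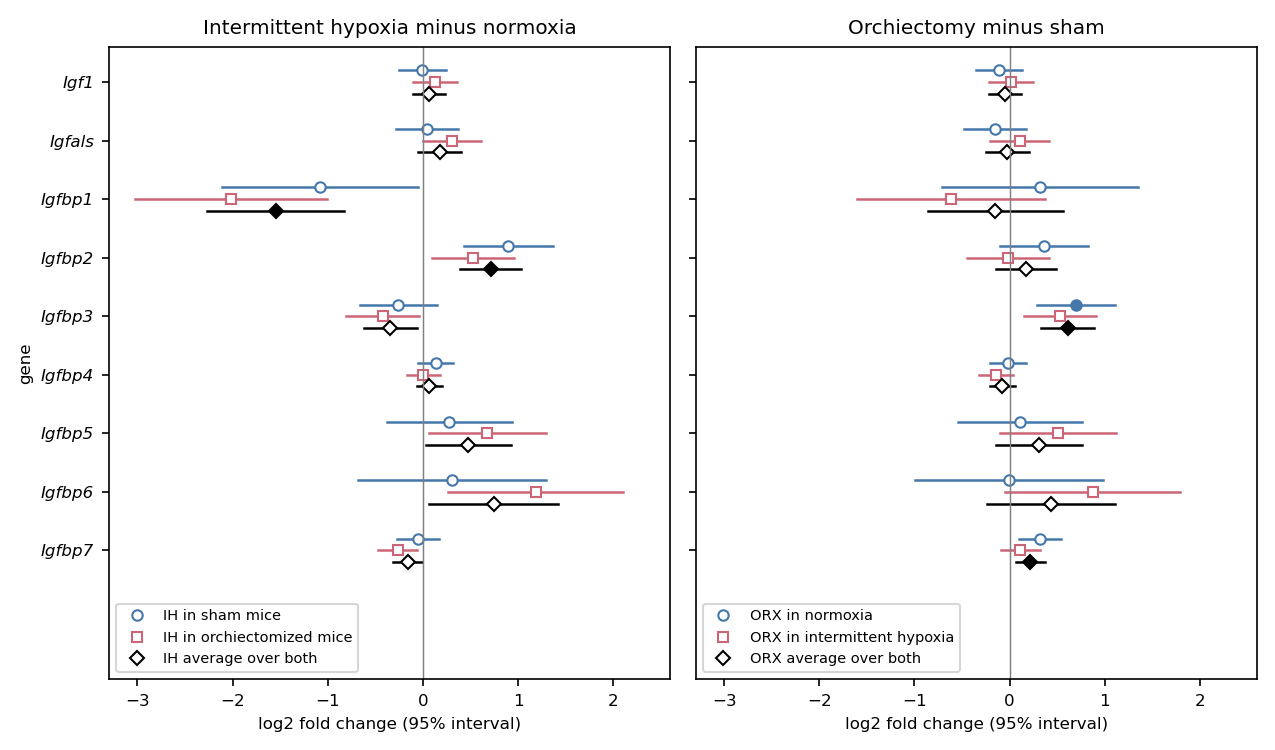
Log2 fold change of each gene with its approximate 95% interval (horizontal axis) for intermittent hypoxia (left) and orchiectomy (right), at each level of the other treatment and averaged over both. Filled symbols mark an adjusted p under 0.05: Igfbp1 at -1.55 and Igfbp2 at 0.71 for the average of intermittent hypoxia, Igfbp3 at 0.69 in normoxia, and Igfbp3 at 0.61 and Igfbp7 at 0.22 for the average of orchiectomy.

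Igf1, the circulating growth factor itself, stayed within a narrow range. Its values were 601, 447, 569 and 497 CPM in Sham_Nx, 603, 440, 454, 567 and 571 in Sham_IH, 535, 501, 391, 477 and 540 in ORX_Nx, and 489, 585, 605, 452 and 537 in ORX_IH. All 4 groups overlapped, and the highest mouse of all exceeded the lowest by 1.55-fold. The means were 528 ± 70, 527 ± 75, 489 ± 60 and 533 ± 64 CPM (SD). Orchiectomy averaged over both exposures moved Igf1 by -0.05 ± 0.09 (log2 ± SE, 95% interval -0.21 to 0.12, edgeR adjusted p = 0.73), and intermittent hypoxia averaged over both operations by 0.06 ± 0.09 (-0.11 to 0.23, adjusted p = 0.73). As folds these intervals run from 0.862 to 1.09 for orchiectomy and from 0.929 to 1.17 for intermittent hypoxia.

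Igfals, whose product closes the large circulating complex, had a median of 164 CPM in Sham_Nx, 165 CPM in Sham_IH and 180.2 CPM in ORX_IH. In ORX_Nx its values were 187, 187, 124, 126 and 112 CPM, so 3 of the 5 mice, numbers 3 to 5, were below every mouse of the other groups. The groups nevertheless overlapped, and the difference in normoxia was -0.15 ± 0.17 (log2 ± SE, edgeR adjusted p = 0.576). Intermittent hypoxia in orchiectomized mice moved it by 0.30 ± 0.16 (adjusted p = 0.332). Across the 19 libraries Igfals followed Igf1 with a Pearson r of 0.72 on log2 CPM (0.70 around the group means), given as a description of libraries that share their scaling.

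Igfbp1, which binds IGF-1 reversibly and is known for its rapid control by insulin, varied most. Its values were 13.9, 35.5, 61.8 and 36.3 CPM in Sham_Nx and 4.60, 11.8, 32.7, 19.3 and 18.8 CPM in Sham_IH. In orchiectomized mice they were 23.2, 38.9, 36.2, 103 and 28.0 CPM in normoxia and 11.2, 4.72, 11.7, 21.1 and 7.78 CPM under intermittent hypoxia. Every orchiectomized mouse under intermittent hypoxia was below every orchiectomized mouse in normoxia, whereas the sham groups overlapped.

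The fold change of Igfbp1 averaged over both operations was -1.55 ± 0.37 (log2 ± SE, edgeR adjusted p = 0.0252), a level 2.92-fold lower under intermittent hypoxia. Of all genes tested, 0.223% had a lower value. Taken apart, it was -1.08 ± 0.53 in sham mice (adjusted p = 0.393) and -2.02 ± 0.51 in orchiectomized mice (adjusted p = 0.0739), and the interaction was -0.94 ± 0.73 (adjusted p = 0.833). The exact two-sided permutation test gave p = 0.00794 in orchiectomized mice, the smallest that 5 against 5 can give, and 0.119 in sham mice. Over the 36 such tests of 9 members in 4 comparisons none passed after adjustment, and the smallest adjusted p was 0.286. Orchiectomy moved Igfbp1 by -0.15 ± 0.36 on average (edgeR adjusted p = 0.80). In normoxia that difference was 0.32 ± 0.52, and it became -0.22 without ORX_Nx 4, the mouse at 103 CPM, neither of them called. The call for intermittent hypoxia was kept in 26 of 30 alternatives. It was lost without Sham_Nx 5 (-1.55, adjusted p = 0.0503), without mouse 5 of every group (-1.58, 0.0760), without the pancreas-high libraries (-1.56, 0.0940) and without the muscle-high libraries (-1.62, 0.140), while the fold change stayed near its full value in these 4 fits.

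The 250 bases upstream of the annotated start of Igfbp1 are shown because this promoter is the textbook case of insulin control through FOXO proteins. RefSeq's window for the older build GRCm38.p6, which is not the authors' build, spans chr11:7197537-7197786 on the plus strand. Capitals mark the core of the insulin response element (CAAAACA, found 108 bases before the start) and a short site of the hepatocyte factor HNF1 (GTTAAT, found on the reverse strand 56 bases before the start and so printed as its reverse complement).
Igfbp1: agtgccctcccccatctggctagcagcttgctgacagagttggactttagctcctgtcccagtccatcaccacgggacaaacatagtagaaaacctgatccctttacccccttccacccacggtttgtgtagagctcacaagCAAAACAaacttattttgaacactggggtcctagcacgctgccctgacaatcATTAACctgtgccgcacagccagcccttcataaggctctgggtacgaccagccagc
Each motif was searched on both strands in 32851 such windows, of which 5.56% held CAAAACA and 6.43% held GTTAAT. Over all RefSeq windows of the 9 members, neither motif was found outside that of Igfbp1. A match describes letters and not a bound site.

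Igfbp2, the second most abundant binding protein transcript, went the other way. Its values were 343, 257, 461 and 208 CPM in Sham_Nx, and 577, 542, 703, 708 and 425 CPM in Sham_IH. They were 354, 464, 534, 417 and 262 CPM in ORX_Nx and 505, 508, 661, 799 and 453 CPM in ORX_IH. In sham mice 4 of the 5 hypoxic livers were above all normoxic ones, and Sham_IH 5 at 425 CPM was below Sham_Nx 4 at 461 CPM. After orchiectomy the ranges overlapped as well.

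The fold change of Igfbp2 averaged over both operations was 0.71 ± 0.16 (log2 ± SE, edgeR adjusted p = 0.0217), or 1.64-fold (95% interval 1.31 to 2.04). It was 0.90 ± 0.24 in sham mice (adjusted p = 0.104) and 0.53 ± 0.22 in orchiectomized mice (adjusted p = 0.231), with an interaction of -0.37 ± 0.32 (adjusted p = 0.856). Mice with both treatments exceeded Sham_Nx by 0.88 ± 0.24 (adjusted p = 0.0271), with every ORX_IH mouse except ORX_IH 5 above every Sham_Nx mouse. Orchiectomy on its own moved Igfbp2 by 0.36 ± 0.24 in normoxia (adjusted p = 0.328) and by -0.01 ± 0.22 under intermittent hypoxia (adjusted p = 0.982). The average was called in 27 of 30 alternatives, and not without Sham_Nx 5 (0.63, adjusted p = 0.0515), without the pancreas-high libraries (0.71, 0.0512) or without the muscle-high libraries (0.74, 0.187). Sham_Nx 5 and Sham_IH 5, both pancreas-high, were the lowest mice of their groups for Igfbp2. The call against Sham_Nx was lost without any one of Sham_Nx 2, Sham_Nx 3, Sham_Nx 5 and ORX_IH 4, with adjusted p up to 0.0996. The summed hepatocyte markers moved with exposure in sham mice, as given above, with a median change over the 7 of 0.31 in sham and 0.12 in orchiectomized mice (log2), none of them called. The part of this shift in the rise of Igfbp2 was not tested.

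The Igfbp2 promoter is shown for contrast, at chr1:72824230-72824479 on the plus strand of GRCm38.p6. Capitals mark GC boxes (GGGCGG, bound by Sp1-type factors) and the core of the hypoxia response element (ACGTG), which occurs on both strands of 1 palindrome and overlaps itself there.
Igfbp2: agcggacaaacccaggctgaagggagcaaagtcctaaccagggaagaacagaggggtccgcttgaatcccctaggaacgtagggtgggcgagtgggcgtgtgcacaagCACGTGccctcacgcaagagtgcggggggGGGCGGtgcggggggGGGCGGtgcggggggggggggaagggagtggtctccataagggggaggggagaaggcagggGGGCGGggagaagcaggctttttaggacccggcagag
The 3 GC boxes begin 113, 98 and 37 bases before the start, and the window is 67.2% G and C, against a median of 52.4% over all windows. GGGCGG was present in 32.7% of the windows and ACGTG in 16.6%, and among the members Igfbp7 also held both. RefSeq gives Igfbp2 2 windows, and the other held neither motif. The sterol regulatory element TCACNCCAC, present in 1.05% of the windows, was in none of the windows listed for the 9 members.

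Igfbp4, which inhibits IGF action in tissue, was both the most abundant and the steadiest member. It lay between 1233 and 1451 CPM in Sham_Nx, between 1351 and 1653 CPM in Sham_IH, between 1199.9 and 1503 CPM in ORX_Nx and between 1229 and 1585 CPM in ORX_IH. All groups overlapped, and the SD within groups was 0.13 on the log2 scale, against a median of 0.22 over all genes tested. Its log2 fold changes over the 8 comparisons lay between -0.14 and 0.13, and the edgeR adjusted p was at least 0.427 in each.

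**Figure D3:**
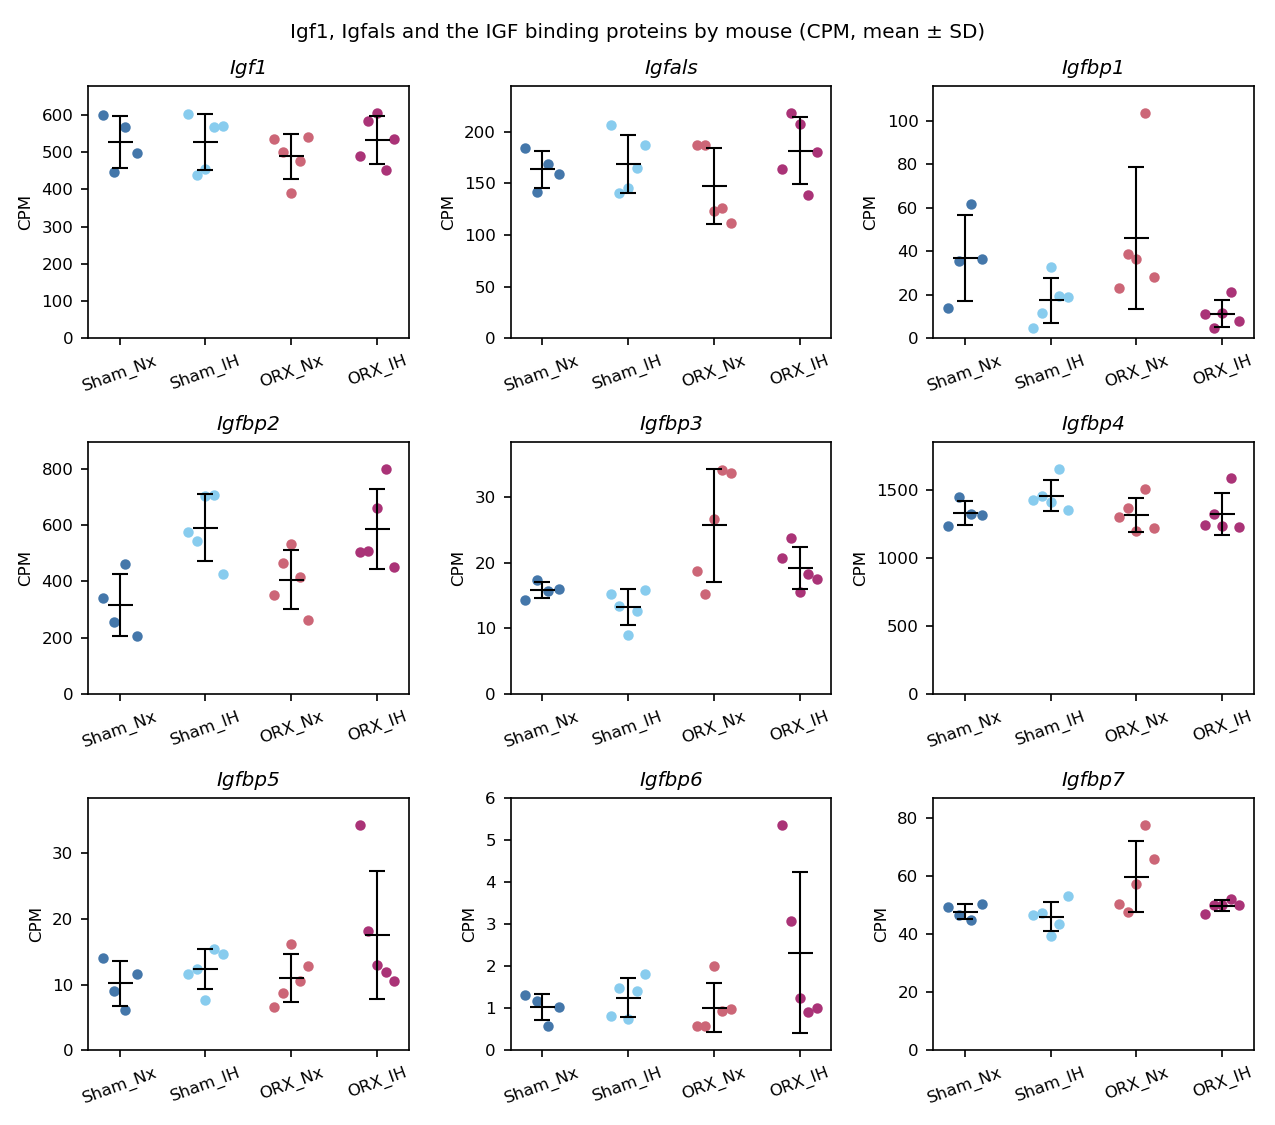
Level of each gene in CPM (vertical axes, starting at 0) in the 4 groups (horizontal axes). Points are mice, and bars show the mean and SD of 4 mice in Sham_Nx and 5 in each other group. Igfbp1 is below 33 CPM in every mouse under intermittent hypoxia, but also in Sham_Nx 2, ORX_Nx 1 and ORX_Nx 5. Igfbp2 is above 425 CPM in every mouse under intermittent hypoxia, but also in Sham_Nx 4, ORX_Nx 2 and ORX_Nx 3. Igfbp3 exceeds 26 CPM only in ORX_Nx 3, 4 and 5.

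Igfbp3, the main carrier in the large circulating complex, was higher after orchiectomy. Its values were 14.3, 17.4, 15.6 and 16.0 CPM in Sham_Nx and 18.7, 15.2, 26.6, 34.1 and 33.6 CPM in ORX_Nx. Under intermittent hypoxia they were 15.3, 13.4, 9.05, 12.6 and 15.9 CPM in Sham_IH and 20.7, 23.7, 15.5, 18.3 and 17.5 CPM in ORX_IH. In normoxia 4 of 5 orchiectomized mice were above all sham mice, with ORX_Nx 3, 4 and 5 highest, and ORX_Nx 2 was inside the sham range. Under intermittent hypoxia 4 of 5 orchiectomized mice were above all sham mice, and ORX_IH 3 at 15.5 CPM fell just below Sham_IH 5.

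The fold change of Igfbp3 averaged over both exposures was 0.61 ± 0.14 (log2 ± SE, edgeR adjusted p = 0.00583), or 1.53-fold (95% interval 1.26 to 1.86). It was 0.69 ± 0.21 in normoxia (adjusted p = 0.0332) and 0.53 ± 0.20 under intermittent hypoxia (adjusted p = 0.162), with an interaction of -0.16 ± 0.28 (adjusted p = 0.948). Exact two-sided permutation p-values were 0.0794 in normoxia and 0.0159 under intermittent hypoxia, before adjustment over the 36 tests. The averaged call held without each of the 19 libraries in turn and in 29 of 30 alternatives in all, and it was lost without the muscle-high libraries (0.53, adjusted p = 0.0821). The call in normoxia was lost without any one of the 4 Sham_Nx mice or of ORX_Nx 3, 4 and 5, with adjusted p up to 0.0871. Intermittent hypoxia moved Igfbp3 by -0.34 ± 0.14 on average (adjusted p = 0.166).

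Igfbp7, a related secreted protein that binds IGFs weakly, showed a similar profile on a smaller scale. It was between 44.8 and 50.4 CPM in Sham_Nx, between 39.5 and 53.3 CPM in Sham_IH and between 46.9 and 52.2 CPM in ORX_IH. In ORX_Nx the values were 50.5, 47.5, 57.5, 77.7 and 66.0 CPM, so ORX_Nx 3, 4 and 5 were above all other mice, as they were for Igfbp3. The averaged change after orchiectomy was 0.22 ± 0.08 (log2 ± SE, edgeR adjusted p = 0.0493). It was 0.32 ± 0.11 in normoxia (adjusted p = 0.0604) and 0.11 ± 0.11 under intermittent hypoxia (adjusted p = 0.626). Only 3 of the 19 fits that left out 1 library still called the average, with adjusted p between 0.0153 and 0.0965. Igfbp3 and Igfbp7 had a Pearson r of 0.87 across the 19 libraries, and 0.80 around the group means.

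Stellate cell, endothelial and Kupffer cell markers were highest in ORX_Nx 4 and 5, while ORX_Nx 3 lay within the range of the other libraries for each. In ORX_Nx 3, 4 and 5 the 12 stellate cell and fibroblast markers summed to 399, 424 and 510 CPM, against 259 to 402 CPM in the other libraries. The 10 sinusoidal endothelial markers summed to 426, 473 and 442 CPM there, against 269 to 437 CPM elsewhere. Kupffer cell markers were high in ORX_Nx 4 and 5 but summed to 219 CPM in ORX_Nx 3, inside the Sham_Nx range of 165 to 268 CPM. Of these lists, 9 of 9 Kupffer markers, 4 of 12 stellate markers and 0 of 10 endothelial markers rose after orchiectomy in normoxia, where 7.88% of all genes tested were called higher. No marker of the 3 lists was at 0 in any group. Other cell types differed in these mice too. In ORX_Nx 3, 4 and 5, 6 cholangiocyte markers summed to 42.6, 41.7 and 61.4 CPM, against 23.8 to 42.3 CPM elsewhere. The 5 vascular smooth muscle markers summed to 38.7, 24.6 and 38.8 CPM there, against 6.65 to 24.1 CPM elsewhere. The 6 neutrophil markers summed to 30.6 CPM in ORX_Nx 4 and to between 0.839 and 3.79 CPM in all other libraries. Without ORX_Nx 4 and ORX_Nx 5, the averaged change of Igfbp3 was 0.44 (edgeR adjusted p = 0.0206) and that in normoxia was 0.35 (adjusted p = 0.279). For Igfbp7 the average without them was 0.12 (adjusted p = 0.137). The part of cell composition in the remaining change was not tested.

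Igfbp5 and Igfbp6 were the scarcest members, and their highest values fell in ORX_IH. Igfbp5, which can also take part in the large complex, was at 34.3, 18.1, 13.0, 11.8 and 10.5 CPM in ORX_IH and between 6.11 and 16.1 CPM in the other groups. Igfbp6, which prefers IGF-2, was at 5.36, 3.07, 1.24, 0.905 and 1.01 CPM in ORX_IH and between 0.569 and 2.01 CPM elsewhere. ORX_IH 1 and ORX_IH 2 were thus the 2 highest libraries for both genes, and the other 3 ORX_IH mice were inside the range of the other groups.

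Neither gene was called. Intermittent hypoxia in orchiectomized mice moved Igfbp5 by 0.68 ± 0.31 (log2 ± SE, edgeR adjusted p = 0.277) and Igfbp6 by 1.19 ± 0.47 (adjusted p = 0.201). The same 2 libraries held the most skeletal muscle RNA, given above, and the most of 6 mesothelial markers, at 16.5 and 9.77 CPM against 2.89 to 9.63 CPM elsewhere. Without the muscle-high libraries the values were 0.11 for Igfbp5 and 0.06 for Igfbp6. Without ORX_IH 1 alone they were 0.28 and 0.60. Across the 19 libraries Igfbp5 and Igfbp6 had a Pearson r of 0.93, and 0.91 around the group means. The contribution of tissue around the liver to their levels was not tested.

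**Figure D4:**
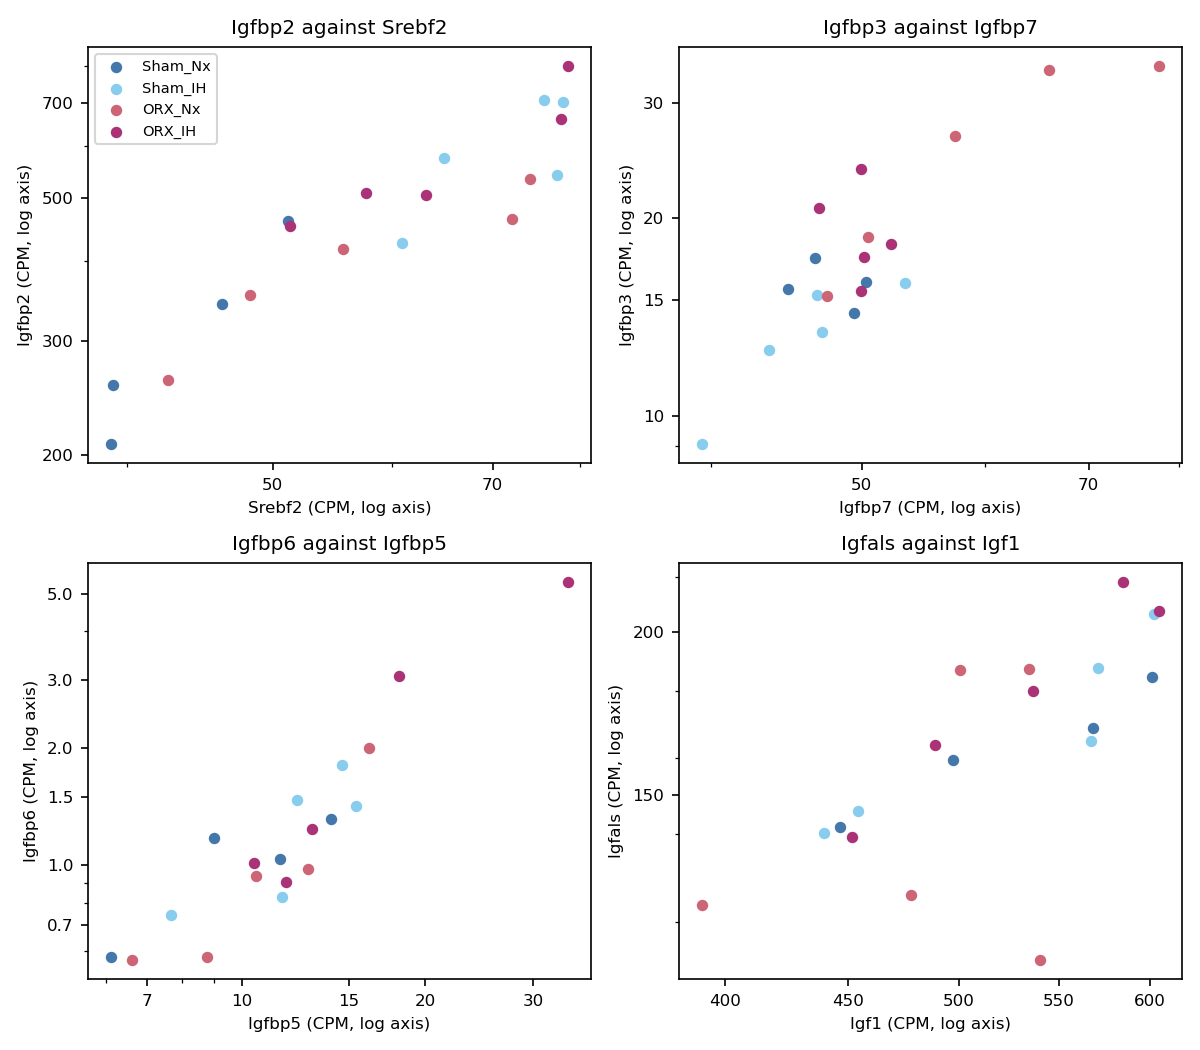
Pairs of genes in the 19 libraries (CPM on log axes, 1 point per mouse, coloured by group): Igfbp2 against Srebf2, Igfbp3 against Igfbp7, Igfbp6 against Igfbp5 and Igfals against Igf1. ORX_Nx 3, 4 and 5 lie at the upper right for Igfbp3 and Igfbp7, and ORX_IH 1 and 2 for Igfbp5 and Igfbp6.

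The genes whose log2 CPM was most like each member's over the 19 libraries were taken from 16155 other tested genes, as a description with no test. For Igfbp2 they were Srebf2 (Pearson r = 0.92), the transcription factor of sterol synthesis, and the sterol pathway enzymes Msmo1 (0.92) and Idi1 (0.91). Around the group means these were 0.88, 0.87 and 0.81. Likeness over all libraries includes the differences between groups, so the changes of these genes between groups are not given as results.

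For Igfbp1 the nearest were Cnppd1 (r = 0.82), Bcl2l11 (0.81), which encodes the cell death protein BIM, and Mark4 (0.79), and these dropped to 0.63, 0.62 and 0.61 around the group means. For Igfbp3 they were Fmnl2 (0.93), Hk1 (0.90) and Matn2 (0.90), and 270 genes had r above 0.8. For Igfbp7 they were Tgfb1 (0.93), Slc9a9 (0.91) and Tor4a (0.90), and 219 genes had r above 0.8. Tgfb1 encodes the cytokine TGF-beta 1.

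Igf1 was nearest to Lifr (r = 0.84), Snrpb2 (0.82) and A630076J17Rik (0.79), and Igfals to Ly6g2 (0.89), Foxa1 (0.85), a hepatocyte transcription factor, and Cdc26 (0.85). Igfbp4 was nearest to Enpp2 (0.86), Slc46a3 (0.85) and Prox1 (0.85). Igfbp5 was nearest to Nbl1 (0.90), Upk3b (0.89) and Sulf1 (0.87), and Igfbp6 to Spock2 (0.91), Muc16 (0.86) and Apol6 (0.86). Upk3b, a mesothelial marker, was highest in ORX_IH 1, ORX_Nx 3 and ORX_IH 2, at 4.77, 3.26 and 3.17 CPM.

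Among the other ligands and receptors of the pathway, 6 of 7 listed genes were tested. Igf1r, the receptor of IGF-1, rose after orchiectomy, by 0.69 ± 0.17 (log2 ± SE, edgeR adjusted p = 0.0132) in normoxia and by 0.42 ± 0.12 (adjusted p = 0.0160) on average. Under intermittent hypoxia its change was 0.15 ± 0.16 (adjusted p = 0.683). Its means were 2.22 ± 0.23 CPM in Sham_Nx (SD, n = 4) and 3.58 ± 0.56 CPM in ORX_Nx (n = 5), and these groups did not overlap. Both calls of Igf1r held without each of the 19 libraries in turn. The call in normoxia was lost with library numbers 1 to 16 only (adjusted p = 0.0602) and without ORX_Nx 4 and 5 (0.0659). Without the muscle-high libraries both calls were lost (0.0795 in normoxia and 0.144 on average). Igf2r, the receptor that takes up and degrades IGF-2, fell by 0.17 ± 0.03 under intermittent hypoxia on average (adjusted p = 0.0105), and by 0.18 ± 0.05 with both treatments (adjusted p = 0.0324). The first call held without each of the 19 libraries in turn. It was lost with library numbers 1 to 16 only (adjusted p = 0.0561) and without the muscle-high libraries (0.183). The second call was kept in 11 of 19 fits that left out 1 library, with adjusted p up to 0.0992. It was kept in only 4 of 12 other settings, and the highest adjusted p, 0.601, came without scaling factors, at -0.07. The median log2 change of the 6 genes after orchiectomy in normoxia was 0.22, against 0.01 over all genes tested. Igf2, Insr, Irs1 and Irs2 passed in no comparison.

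None of 6 genes for binding protein proteases and their inhibitors passed in any of the 8 comparisons in edgeR, where 0 to 22.0% of all genes were called. In each comparison between 0 and 2 of the 6 had an unadjusted p under 0.05, against 6.34% to 35.5% of all genes. The largest difference among them for orchiectomy in normoxia was that of Pappa, the protease of IGFBP-4, at 1.94 ± 0.69 (log2 ± SE, edgeR adjusted p = 0.0655). Pappa held at most 0.307 CPM in any library, with means of 0.0471 CPM in Sham_Nx and 0.196 CPM in ORX_Nx, so this ratio rests on few counts. Under intermittent hypoxia the change of Pappa after orchiectomy had the other sign, at -0.75 ± 0.61 (adjusted p = 0.565).

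Of 13 genes from the growth hormone receptor to STAT5 and its feedback inhibitors, 4 rose and 1 fell after orchiectomy averaged over both exposures, where 22.0% of all genes tested were called. Stat5b, the transcription factor of the pathway, rose by 0.28 ± 0.07 (log2 ± SE, edgeR adjusted p = 0.00535). The feedback inhibitor Cish rose by 1.52 ± 0.36 (adjusted p = 0.00642) and Cux2, a female-biased repressor, by 1.57 ± 0.23 (adjusted p = 0.000156). Cish was called in neither exposure, at 1.32 ± 0.52 in normoxia (adjusted p = 0.0932) and 1.72 ± 0.49 under intermittent hypoxia (0.0684). It lay between 5.45 and 62.0 CPM in ORX_Nx. Its averaged call was lost without the muscle-high libraries (adjusted p = 0.0755). The change of Stat5b was 0.43 ± 0.10 in normoxia (adjusted p = 0.00773) and 0.14 ± 0.09 under intermittent hypoxia (adjusted p = 0.451). Socs3, an inhibitor that inflammatory cytokines also induce, rose by 1.51 ± 0.43 (adjusted p = 0.0176), and Socs3 is also one of the 12 acute phase genes above. ORX_Nx 4 held 141 CPM of Socs3, against 7.92 to 26.4 CPM in the other ORX_Nx mice and 5.55 to 18.9 CPM in the other groups. The change of Socs3 was 2.46 ± 0.65 in normoxia (adjusted p = 0.0188) and 0.57 ± 0.58 under intermittent hypoxia (adjusted p = 0.658). Without ORX_Nx 4 the average was 0.82 (adjusted p = 0.0163) and the value in normoxia 1.08 (adjusted p = 0.0460). Bcl6, a male-biased repressor of STAT5 targets, fell by 1.65 ± 0.38 on average (adjusted p = 0.00581). Its difference was -0.33 ± 0.54 in normoxia (adjusted p = 0.726) and -2.96 ± 0.56 under intermittent hypoxia (adjusted p = 0.00593), and the interaction, -2.63 ± 0.78, did not pass (adjusted p = 0.537). Bcl6 lay between 9.30 and 71.7 CPM in ORX_Nx, inside the range of sham mice or below it, and between 8.52 and 9.75 CPM in ORX_IH, below every sham mouse. The receptor Ghr was at -0.30 ± 0.12 (adjusted p = 0.0655), and Igf1, a target of the pathway, was at -0.05 as given above. Under intermittent hypoxia averaged over both operations 1 of the 13, Cux2, rose, by 1.46 ± 0.23 (adjusted p = 0.00326), with 4.53% of all genes called. Without the muscle-high libraries that call was lost (adjusted p = 0.117). So were the averaged orchiectomy calls of Socs3 (0.150) and Bcl6 (0.0509), and those of Stat5b in normoxia (0.102) and Bcl6 under intermittent hypoxia (0.0676).

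Of 10 genes of the insulin and fasting response that were tested out of 11 listed, 1 rose and 2 fell under intermittent hypoxia averaged over both operations, where 4.53% of all genes tested were called. Srebf1, which insulin induces in hepatocytes, rose by 1.08 ± 0.29 (log2 ± SE, edgeR adjusted p = 0.0391). The change of Srebf1 was 1.79 ± 0.43 in sham mice (adjusted p = 0.0736) and 0.37 ± 0.39 in orchiectomized mice (adjusted p = 0.678), and the interaction, -1.42 ± 0.57, did not pass (adjusted p = 0.739). Only 7 of the 19 fits that left out 1 library still called the average of Srebf1, with values from 0.87 to 1.22 and adjusted p up to 0.0798. Txnip, which restrains glucose uptake, fell by 0.61 ± 0.11 (adjusted p = 0.00522) and Sesn3, a FOXO target, by 0.26 ± 0.05 (adjusted p = 0.0123). Both calls were lost without the muscle-high libraries (adjusted p = 0.106 and 0.167), and that of Sesn3 also without the pancreas-high ones (0.0774). The gluconeogenic enzyme genes Pck1 and G6pc were at -0.77 ± 0.26 (adjusted p = 0.0893) and -0.81 ± 0.38 (adjusted p = 0.222). The median over the 10 genes was -0.22, against 0.00 over all genes tested. After orchiectomy averaged over both exposures, 3 of the 10 rose and 1 fell, where 22.0% of all genes tested were called. Of these, Ppargc1a was at 0.53 (adjusted p = 0.00413), Txnip at 0.35 (adjusted p = 0.0276) and Pck1 at -0.82 (adjusted p = 0.0299).

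Of 14 targets of hypoxia-inducible factors, none passed in edgeR for intermittent hypoxia in either operation or on average. At an unadjusted p under 0.05 there were 2 of 14 in sham mice against 13.1% of all genes tested, 4 of 14 in orchiectomized mice against 17.1%, and 4 of 14 on average against 21.6%. On average the nearest to the threshold was Egln3, an oxygen-sensing prolyl hydroxylase, at 0.25 ± 0.07 (log2 ± SE, edgeR adjusted p = 0.0513). The median of the 14 was -0.02 there. After orchiectomy averaged over both exposures, 1 of the 14 rose and 1 fell, where 22.0% of all genes tested were called. These were Ankrd37 at 1.09 (adjusted p = 0.0268), with at most 1.84 CPM in any library, and Pfkfb3 at -0.81 (adjusted p = 0.00116). The call of Ankrd37 was kept in 17 of 19 fits that left out 1 library and in 10 of 11 other settings.

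The authors' deposited table gives an F-statistic, a p-value and a q-value per gene. In the authors' deposited table no member had a q-value under 0.05, and the lowest were 0.0831 for Igfbp3, 0.0940 for Igfbp2 and 0.138 for Igfbp1.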

How the data were processed

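Groups and mouse numbers were read from the sample titles. Poly(A) RNA of frozen liver was sequenced from strand-specific libraries, per the labels' protocols. Per the submitters' processing notes, bcl2fastq 2.20, fastp 0.23.2, FastQC 0.11.9, MultiQC 1.12 and kallisto 0.46.1 were used with build GRCm39. The authors deposited estimated counts per gene, of which 27.5% of values were not whole, and they were rounded. The authors also deposited a log2 table with an F-statistic (a score), a p-value and a q-value per gene. No source used here gives its normalization. It was read as length-normalized, since its values differed from log2 RPKM computed with TMM sizes by a median of 0.0784 over 16125 genes.

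Totals were 29.3 to 69.6 M per library, so 3 counts correspond to at most 0.102 CPM. No replicate pair agreed within sampling noise (chi-square per degree of freedom at least 18.5). edgeR 4.0.16 in R 4.3.3 (filterByExpr with a minimum count of 10, TMM scaling, quasi-likelihood F-test) was fitted over all 4 groups, with Benjamini-Hochberg adjustment over 16164 genes. The SE is the size of the log2 change over the square root of F, and 95% intervals are 1.96 SE, which is approximate. Permutation tests used log2 CPM with a prior count of 1 in scipy 1.17.1. The fit was tested on simulated counts. Alternatives used DESeq2 1.42.0, limma 3.58.1 (voom, and trend on the log2 table), other scalings, no filter, a replicate block and left-out libraries. Sequences are RefSeq's (GRCm38.p6), and all 9 members matched.

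The members, lists and tests were chosen with earlier results of these data known. Genes named are the members, the 3 genes most correlated with each, and up to 3 called genes of smallest p per list and comparison, with others from the lists named after their values were seen. The same alternatives were applied to called genes of these lists after their values were seen. One gene of the insulin and fasting list is not reported here.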

Additional observations from a re-analysis of the deposited data

Results flagged for a closer look

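Of 36 combinations of a member and a group, 3 had a mouse whose CPM was separated from the next by more of the group's range than Dixon's test allows at 95% (0.71 for 5 mice), and chance gives about 1 in 20. Igfbp1 was high in ORX_Nx 4, at 103 CPM, with a gap of 0.804 of the range. That mouse also had the highest acute phase sum, and the relation was not tested. Igfbp4 was high in ORX_IH 4, at 1585 CPM, with a gap of 0.735 of the range. Igfbp6 was high in ORX_Nx 3, at 2.01 CPM, with a gap of 0.716 of the range.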

How the results depend on the processing

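Of 2205 values of single members under another scaling, filter, tool or choice of libraries, none reversed a call, 52 lost one and 17 gained one, and 79 changed sign without being called. Without scaling factors the median of all genes moved to 0.14 (log2) for orchiectomy in normoxia. For orchiectomy in normoxia the count of called members, 1, became 2 without scaling factors and with DESeq2. It became 0 with limma-voom, with limma-trend on the authors' table, with library numbers 1 to 16 only (no mouse 5), when the fit held no other groups, without ORX_Nx 4 and 5, and without either the 4 muscle-high libraries (ORX_IH 1 and 2, Sham_Nx 2 and 3) or the 3 pancreas-high ones (Sham_IH 5, Sham_Nx 5, ORX_IH 1). It ranged from 0 to 2 when 1 library was left out. The calls over all genes tested moved too, from 2319 to 2734 without scaling factors and 3064 with DESeq2. They fell to 1843 with limma-voom, 2067 with limma-trend, 1098 with library numbers 1 to 16 and 918 with no other groups. Without ORX_Nx 4 and 5 they were 1475, without the muscle-high libraries 422 and without the pancreas-high ones 1101. For intermittent hypoxia the count of 0 became 1 with DESeq2, in sham and in orchiectomized mice. Calls over all genes rose there from 49 to 397 in sham mice and from 12 to 706 in orchiectomized mice. For both treatments the count of 1 became 2 with DESeq2, in a fit of the compared groups alone and without ORX_Nx 4 and 5. All genes called were 1394 in the main fit, and 1981, 1394 and 2036 in these fits, in that order. The count became 0 without the muscle-high libraries (132 genes called) or the pancreas-high ones (504). It was 0 to 2 leaving out 1 library. For the average of orchiectomy the count of 2 became 1 with no filter, limma-voom, limma-trend and library numbers 1 to 16. All genes called fell there from 3549 to 2985, 2969, 3236 and 2438, in that order. The count was also 1 without ORX_Nx 4 and 5 (2981 genes called) and without the pancreas-high libraries (2063). It was 0 without the muscle-high ones (1306), and 1 to 2 leaving out 1 library. For the average of intermittent hypoxia the count of 2 became 1 with library numbers 1 to 16. All genes called fell there from 733 to 380. The count became 0 without the muscle-high libraries (8 genes called) or the pancreas-high ones (157). It was 0 to 2 leaving out 1 library, and 0 without Sham_Nx 5 (288 genes called). The labels tie same-numbered mice by number alone. The deviations of same-numbered mice from their group means correlated at -0.20 to 0.40, above 0.1 in 5 of 27 pairs, so the number was not taken as a pairing. Still, 8 of 19 libraries correlated best with their own number. How many would do so by chance was not worked out, so a pairing is not excluded. With the mouse number as a replicate block the count became 0 for orchiectomy in normoxia (1794 genes called), where Igfbp3 was lost. It became 1 for intermittent hypoxia in sham mice (34 genes called), where Igfbp2 was gained, and 2 for both treatments (1115 genes called). Other counts of called members did not move by over 1.5 times under these settings. Leaving out libraries also leaves fewer mice, and the cause of each lost call was not tested. Depth limits Igfbp6 most, at 23 to 372 counts per library.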
